A study of Rattus norvegicus with 48 samples.

Results

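The miR-17-92 and miR-106b-25 clusters were followed through 8 mature miRNAs, miR-17-5p, miR-18a-5p, miR-19b-3p, miR-20a-5p and miR-92a-3p of the first and miR-106b-5p, miR-93-5p and miR-25-3p of the second. The members were chosen by name, and all 8 of 8 were found among 612 mature and 1063 total names in the deposited table. Lines that shared a name were added up, which concerned miR-17-5p, miR-19b-3p and miR-92a-3p with 2 lines each. The values are a signal scaled per 1000000 reads (RPM), separately for mature and precursor names, and 1 mature read was worth from 0.730 to 2.75 RPM.

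Small RNA was sequenced from the amygdala and the ventral striatum of Long Evans rats at postnatal day 42, in 24 libraries per region. Dams had been injected with ethanol or, as the control, saline on gestational day 12. From weaning on day 21 the offspring lived either with littermates (non-enriched) or with unfamiliar rats of the same age and sex from untreated dams (socially enriched), and all of them took a social interaction test before the tissue was taken. Each library held pooled RNA of 3 rats of one sex, 6 libraries stood for each of the 4 treatment groups of a region (3 female, 3 male), and both regions came from the same rats, and the labels do not state which pools share rats. The library numbers in the labels may do so, since each of the 24 amygdala libraries has the number after that of a ventral striatum library of its sex and treatment, but what they stand for is not given. Because rats were pooled, the spread between libraries is a spread between pools.

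The clusters are transcribed as one RNA each, from which several hairpins are cut, and each hairpin gives one or both arms as a mature miRNA of about the same length. The arm that enters the silencing complex finds its mRNA targets mainly by its seed, bases 2 to 8. Both clusters are best known for their part in cell proliferation and growth, where miR-17 and miR-19 family members repress inhibitors of the cell cycle and of survival signalling, and they are active in dividing neural progenitors.

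The mature sequences are shown first because 4 of the 8 members share one seed across both clusters and another 2 share a second, so that members can be read as families as well as by locus. Sequences and positions are from RefSeq on the GRCr8 rat assembly, written 5′ to 3′ with the seed in capitals, and all 8 members matched.
miR-17-5p: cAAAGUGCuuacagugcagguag
miR-20a-5p: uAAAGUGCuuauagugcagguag
miR-93-5p: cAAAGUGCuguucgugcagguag
miR-106b-5p: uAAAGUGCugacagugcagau
miR-18a-5p: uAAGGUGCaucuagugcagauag
miR-19b-3p: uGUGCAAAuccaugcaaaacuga
miR-92a-3p: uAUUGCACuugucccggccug
miR-25-3p: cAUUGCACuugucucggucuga

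miR-17-5p, miR-20a-5p, miR-93-5p and miR-106b-5p carry the seed AAAGUGC, and miR-92a-3p and miR-25-3p the seed AUUGCAC. Counting bases from 1 at the 5′ end, miR-17-5p and miR-20a-5p differ by the substitutions C1U and C12U, both outside the seed. The 5 members of miR-17-92 lie on the plus strand of chromosome 15, between base 98587861 and base 98588622. The 3 members of miR-106b-25 lie on the minus strand of chromosome 12, between base 22156652 and base 22157123, within the span of the gene Mcm7, which encodes a subunit of the replication helicase. The same mature sequences of miR-17-5p, miR-19b-3p and miR-92a-3p occur a second time on the minus strand of chromosome X, between base 137342945 and base 137343637, so the values of these 3 members cannot be assigned to 1 locus. Both regions held miRNAs typical of brain: the neural markers miR-124-3p, miR-9a-5p and miR-128-3p summed to 26997 to 51087 RPM in the amygdala, against 27500 to 53190 RPM in the ventral striatum.

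Read by their mature names, the 2 most abundant members were both from miR-106b-25. miR-25-3p ranged from 410 to 833 RPM in the amygdala, with a median of 518, and from 490 to 747 RPM in the ventral striatum, with a median of 609. miR-93-5p, which shares its seed with miR-17-5p, ranged from 385 to 741 RPM (median 459) in the amygdala, against 429 to 795 RPM (median 569) in the ventral striatum. Together they held a median of 85.3% of the summed RPM of the 8 members in the amygdala, against 86.2% in the ventral striatum, and no library fell under 81.7%. By mean RPM over all libraries miR-25-3p ranked 98 and miR-93-5p ranked 105 of the 612 mature names.

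The third miRNA of the same cluster was far lower. miR-106b-5p ranged from 14.4 to 27.3 RPM (median 21.4) in the amygdala, against 12.2 to 32.7 RPM (median 21.6) in the ventral striatum, close to its counterpart miR-17-5p in the other cluster. miR-17-5p, the founding member of the AAAGUGC family, ranged from 9.63 to 36.7 RPM (median 22.04) in the amygdala, against 16.6 to 49.3 RPM (median 27.0) in the ventral striatum. These 2 members rested on few reads, 4 to 48 per library for miR-17-5p and 6 to 36 for miR-106b-5p.

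Within miR-17-92, miR-92a-3p and miR-19b-3p were the highest. miR-92a-3p was read at 26.9 to 89.5 RPM (median 56.4) in the amygdala, against 36.7 to 129 RPM (median 63.9) in the ventral striatum. miR-19b-3p was read at 35.7 to 80.2 RPM (median 49.6) in the amygdala, against 48.0 to 79.3 RPM (median 66.8) in the ventral striatum. miR-20a-5p, a near twin of miR-17-5p, stood below it with 5.03 to 25.2 RPM (median 15.4) and 8.85 to 35.01 RPM (median 19.4) in the same order. miR-18a-5p was near the limit of detection, with 0 to 8.09 RPM in the amygdala, against 0 to 6.16 RPM in the ventral striatum. It had 3 reads or fewer in 36 of the 48 libraries and none in 7. A library with no reads allows a level up to that of 3 reads (counting error only). Over all 48 libraries, 3 reads were worth 2.19 to 8.26 RPM.

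The order of the members by mean RPM was the same in both regions, but not every step in it was larger than the spread between libraries. miR-25-3p was above miR-93-5p in 22 of 24 amygdala libraries and in 16 of 24 of the ventral striatum. miR-92a-3p was above miR-19b-3p in only 14 and 11 of 24, so these neighbours did not separate in either region. miR-17-5p exceeded miR-106b-5p in 12 and 19 of 24 libraries, and miR-106b-5p exceeded miR-20a-5p in 19 and 13 of 24. The other steps, from miR-93-5p to miR-92a-3p, from miR-19b-3p to miR-17-5p and from miR-20a-5p to miR-18a-5p, held in all 24 libraries of each region. The mature forms are 21 to 23 bases long, so the levels were not divided by length.

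**Figure D1:**
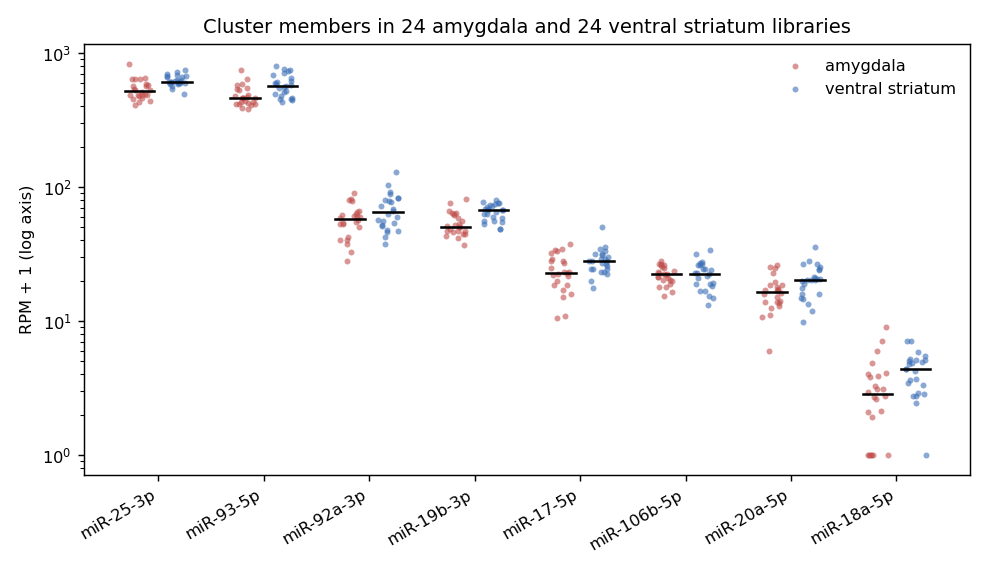
RPM + 1 on a log axis for each of the 8 members, with 1 point per library (24 in the amygdala, 24 in the ventral striatum) and a black line at the median. miR-25-3p and miR-93-5p stand near 500 RPM, miR-18a-5p has 7 libraries at 0 (drawn at 1), and the medians of 7 members are higher in the ventral striatum while those of miR-106b-5p nearly coincide.

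The level of miR-92a-3p depended on which name of the table was read. For 3 hairpin families the reads on the mature names nearly equalled the reads on the hairpin names, with 99.0% for mir-25, 99.2% for mir-19b and 95.6% for mir-93 over the 48 libraries. For mir-92a the mature names held 2997 reads and the hairpin names 89639 reads, a share of 3.34% that lay between 2.03% and 5.43% in every library. This was a low share in the table as a whole: over 245 hairpin names with at least 480 reads the median was 83.6%, and 23 of them (9.39%) were under 10%.

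Read by its hairpins, mir-92a was instead the most abundant member of both clusters. The name mir-92a-1, the hairpin on chromosome 15, held 85613 reads and mir-92a-2 held 4026, against 26795 for mir-25 and 25419 for mir-93. mir-92a-1 averaged 1456 ± 285 RPM of precursor reads (SD, n = 24) in the amygdala, against 1796 ± 352 RPM (SD, n = 24) in the ventral striatum. The 78-base hairpin is shown because these reads fall on it, with the 21 bases annotated as miR-92a-3p, positions 48 to 68, in capitals.
mir-92a-1 hairpin: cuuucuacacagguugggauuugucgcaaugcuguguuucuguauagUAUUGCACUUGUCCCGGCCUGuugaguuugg

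The mature value of miR-92a-3p therefore reports a small part of the reads assigned to its hairpins, and the reason was not tested. The remaining hairpins stood between these extremes, with 77.7% for mir-17, 72.4% for mir-106b, 70.7% for mir-20a and 64.3% for mir-18a. The related miR-92b-3p, which has the same seed as miR-92a-3p but lies on chromosome 2, is given because it carried most reads of that seed.
miR-92b-3p: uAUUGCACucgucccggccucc

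It differs from miR-92a-3p by U10C and G21C over the 21 bases they have in common. It averaged 10236 ± 1081 RPM (SD, n = 24) in the amygdala, against 9072 ± 1624 RPM (SD, n = 24) in the ventral striatum. The 5 mature names with the seed AUUGCAC in the table summed to 10840 ± 1080 RPM (SD, n = 24) in the amygdala, against 9775 ± 1613 RPM (SD, n = 24) in the ventral striatum. The 5 names with the seed AAAGUGC, mostly miR-93-5p, summed to 542 ± 88.2 RPM and 650 ± 112 RPM (SD, n = 24 each). The paralogue miR-20b-5p was read in only 3 of the 48 libraries.

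**Figure D2:**
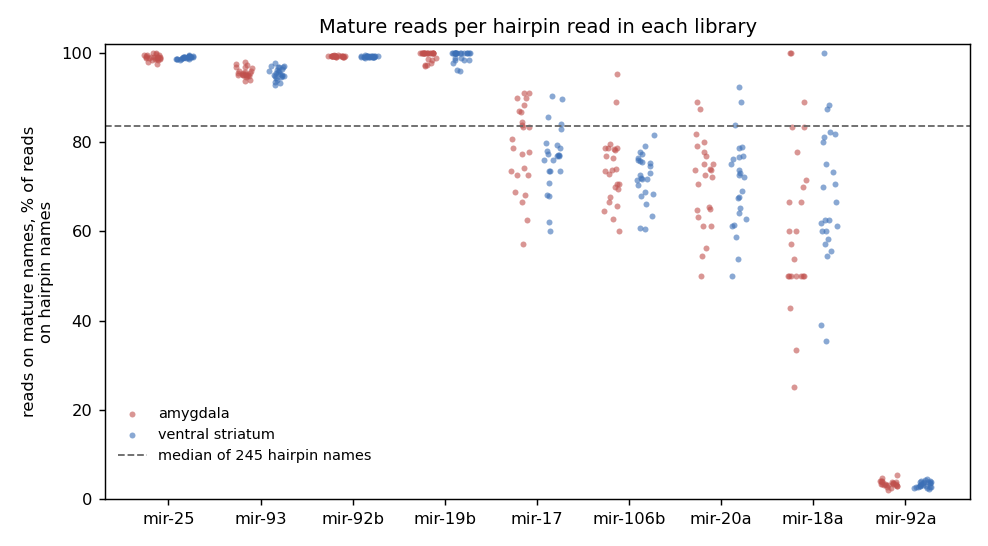
Reads on the mature names as a percentage of reads on the hairpin names, 1 point per library and colours for the region; the dashed line is the median of 245 hairpin names, 83.6%. All mir-92a points lie between 2.03% and 5.43%, while those of mir-25 are at 97.6% or above.

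Of the 8 members, 7 were lower in the amygdala than in the ventral striatum by mean log2(RPM + 1), and 4 of these 7 passed the test. The comparison asks how far the members' levels differ between these regions, with sex and treatment balanced. It was made with limma on log2(RPM + 1), and p-values were adjusted by the Benjamini-Hochberg method over the 915 names tested. Over all names, 277 of 915 (30.3%) had an adjusted p under 0.05, of which 197 (21.5% of those tested) were lower and 80 (8.74%) higher in the amygdala. The median difference of the 8 members was −0.28 on the log2 scale, against −0.08 for all names.

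From miR-106b-25, miR-25-3p averaged 538 ± 94.8 RPM in the amygdala, against 624 ± 57.6 RPM in the ventral striatum (SD, n = 24 each), and the ranges overlapped. Its log2 difference was −0.23 (SE 0.05, limma adjusted p = 0.00160), and it was lower in the amygdala in 7 of the 8 combinations of sex and treatment. miR-93-5p averaged 483 ± 86.4 and 582 ± 110 RPM, with a log2 difference of −0.27 (SE 0.08, limma adjusted p = 0.00839), lower in 8 of 8 combinations. miR-106b-5p averaged 21.2 ± 3.45 and 21.3 ± 5.25 RPM (SD, n = 24 each), with a log2 difference of 0.01 (SE 0.09, limma adjusted p = 0.947), and was lower in the amygdala in 4 of the 8 combinations. It was the exception in its cluster, although its other arm, miR-106b-3p, was called lower: 25.1 ± 7.26 RPM against 34.2 ± 10.9 RPM (SD, n = 24 each), a log2 difference of −0.42 (SE 0.13, limma adjusted p = 0.0122).

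From miR-17-92, miR-19b-3p averaged 52.9 ± 10.96 RPM in the amygdala, against 64.4 ± 9.17 RPM in the ventral striatum (SD, n = 24 each). Its log2 difference was −0.29 (SE 0.07, limma adjusted p = 0.00224), with 22 of 24 amygdala libraries under the ventral striatum's median. miR-18a-5p also passed, at 2.15 ± 2.05 and 3.28 ± 1.46 RPM (SD, n = 24 each) and a log2 difference of −0.63 (SE 0.24, limma adjusted p = 0.0405). Those levels are within a few reads of 0, so no fold is given, and the call was lost without any 1 of 21 of the 48 libraries. miR-17-5p (22.8 ± 7.39 against 27.4 ± 6.48 RPM), miR-20a-5p (15.6 ± 4.83 against 19.4 ± 5.85 RPM) and miR-92a-3p (56.2 ± 15.7 against 67.2 ± 21.8 RPM) had log2 differences of −0.29, −0.30 and −0.24 and limma adjusted p of 0.0577, 0.0959 and 0.171. With libraries of adjoining numbers paired as a random block, miR-17-5p was called as well (limma adjusted p = 0.0489), which made 5 members.

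The calls, more than the directions, moved with the scaling of the libraries. After median-ratio rescaling of the RPM, 1 member, miR-19b-3p, stayed past the threshold (log2 difference −0.23, limma adjusted p = 0.0206), and of the names tested 24.7% were called, 105 higher and 121 lower. Without the 9 amygdala libraries under 700000 mature reads, an alternative chosen after the values were seen, miR-19b-3p and miR-20a-5p were called, and the count was 2. The 7 members that were lower kept that direction under every alternative tried and with each library left out, and miR-106b-5p stayed near 0, between −0.03 and 0.08.

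Some hairpins and other arms of the clusters were also lower in the amygdala. Of 31 related names 25 could be tested, and at an adjusted p under 0.05 by limma 11 were lower, 2 were higher and 12 were not called, where 21.5% of all names tested were lower and 8.74% higher. Their median log2 difference was −0.26. The lower ones included mir-18a (−0.60, limma adjusted p = 0.00296) and mir-92a-1 (−0.30, limma adjusted p = 0.00327), and also miR-18a-3p, mir-106b, mir-17-1, mir-19a, mir-19b-1, mir-19b-2, mir-25 and mir-93. Precursor and mature names share reads, so these are not separate measurements. Both higher ones were from the unclustered relative: miR-92b-3p was higher by 0.19 (SE 0.07, limma adjusted p = 0.0362) and mir-92b by 0.20 (SE 0.07, limma adjusted p = 0.0261). miR-92b-3p and miR-25-3p share a seed, and within a library their ratio does not depend on scaling. The log2 ratio of miR-25-3p to miR-92b-3p averaged −4.26 in the amygdala, against −3.84 in the ventral striatum. By mean RPM, which does depend on scaling, miR-25-3p stood at 5.25% of miR-92b-3p in the amygdala, against 6.88% in the ventral striatum.

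Markers of other cells moved with the region as well. miR-204-5p and miR-211-5p, typical of choroid plexus, summed to 3120 to 122541 RPM in the amygdala, against 3827 to 6987 RPM in the ventral striatum, and both were called higher in the amygdala (log2 differences 1.13 and 0.65). The oligodendrocyte miRNAs miR-338-3p and miR-219a-5p summed to 3989 to 13455 RPM in the amygdala, against 5174 to 14115 RPM in the ventral striatum, and both were called lower in the amygdala (−0.44 and −0.49). Red blood cells are rich in miR-92a and miR-25, and their markers miR-451-5p, miR-144-3p and miR-144-5p summed to only 8.96 to 56.9 RPM and 14.8 to 53.0 RPM, and 0 of 3 were called. Of the other lists, 1 of 3 neural names (miR-128-3p, 0.41), 1 of 2 mesenchymal names (miR-145-5p, −0.26), 0 of 2 endothelial, 0 of 2 tested leukocyte and 0 of 3 ciliated cell names were called, and miR-223-3p was at 0 in 40 of 48 libraries. Median depth was 855220 mature reads in the amygdala, against 1031166 in the ventral striatum. The part of these values in the region difference was not tested, and fewer cells of a type and less RNA per cell cannot be told apart in such tissue.

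**Figure D3:**
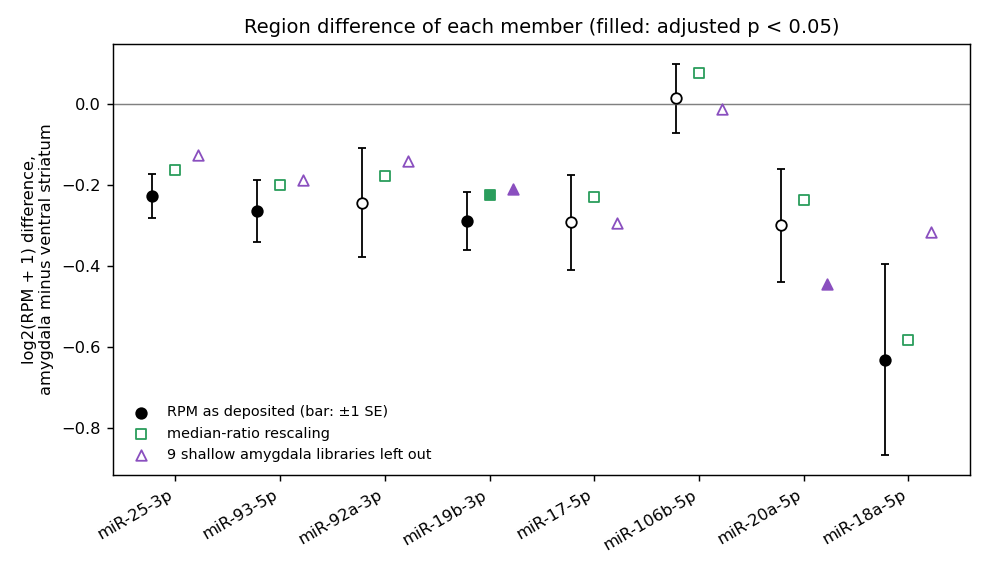
Difference in log2(RPM + 1), amygdala minus ventral striatum, for each member, from the deposited RPM (black, ±1 SE), after median-ratio rescaling (green) and without 9 shallow amygdala libraries (purple), filled where the adjusted p is under 0.05. All points except 2 of the 3 of miR-106b-5p are under 0, and miR-19b-3p alone is filled in all 3 settings.

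For prenatal ethanol and social enrichment, none of the 8 members passed the test in any comparison. Each comparison was made within a region over its 24 libraries, with limma tests of 910 names for the amygdala, 933 for the ventral striatum. For ethanol against saline among non-enriched rats, which asks what prenatal exposure left at this age, 0 of 8 members and 0 names had an adjusted p under 0.05 in either region. An unadjusted p under 0.05 was found for 4.51% of names in the amygdala, with 2.04% for the ventral striatum. These shares were 3.85% and 2.25% for ethanol among socially enriched rats, 2.64% and 3.86% for enrichment among saline rats, and 2.64% and 1.82% for enrichment among ethanol-exposed rats, again with 0 names at an adjusted p under 0.05. Over these 8 comparisons, 2 of 64 member tests had an unadjusted limma p under 0.05, and the same number, 2 of 64, an exact permutation p under 0.05. The comparisons share groups, so they are not independent of each other.

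The means of the 2 abundant members lay close together across treatments. miR-25-3p in the amygdala averaged 532 ± 73.6 RPM in saline non-enriched, 525 ± 70.9 in saline socially enriched, 574 ± 136 in ethanol non-enriched and 520 ± 101 in ethanol socially enriched rats (SD, n = 6 each). In the ventral striatum its means were 617 ± 70.3, 598 ± 43.1, 665 ± 70.1 and 617 ± 25.9 RPM in the same order. In both regions these groups overlapped, and the highest of the 4 means was in ethanol-exposed non-enriched rats. The amygdala mean of that group leans on 1 library at 833 RPM, with the next at 585 RPM. miR-93-5p averaged 455 ± 71.4, 483 ± 51.8, 503.8 ± 131 and 489 ± 88.8 RPM in the amygdala, against 544 ± 61.2, 565 ± 125, 589 ± 132 and 630 ± 118 RPM in the ventral striatum. Its lowest mean was that of saline non-enriched rats in both regions, and its groups overlapped too.

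In miR-17-92 the treatment groups overlapped widely. miR-92a-3p averaged 46.6 ± 12.2, 58.2 ± 5.78, 61.3 ± 16.04 and 58.7 ± 23.3 RPM in the amygdala, and 60.6 ± 15.4, 62.6 ± 21.6, 67.5 ± 11.4 and 78.3 ± 33.5 RPM in the ventral striatum (order as above, SD, n = 6 each). miR-19b-3p averaged 54.7 ± 9.43, 49.5 ± 11.1, 52.8 ± 11.4 and 54.8 ± 13.7 RPM in the amygdala, and 61.9 ± 8.68, 64.1 ± 9.63, 65.97 ± 10.4 and 65.6 ± 9.90 RPM in the ventral striatum. The means of miR-19b-3p spanned less than the SD of any of its groups within each region. miR-17-5p averaged 22.5 ± 6.97, 18.1 ± 7.71, 27.6 ± 7.36 and 23.1 ± 5.87 RPM in the amygdala, and 27.4 ± 3.81, 24.6 ± 6.22, 26.9 ± 2.74 and 30.7 ± 10.5 RPM in the ventral striatum. miR-20a-5p averaged 17.3 ± 4.24, 15.3 ± 4.59, 14.8 ± 6.68 and 15.1 ± 4.39 RPM in the amygdala, and 17.2 ± 2.46, 19.3 ± 5.003, 22.6 ± 8.20 and 18.3 ± 6.29 RPM in the ventral striatum. The 2 near twins thus had their highest group mean in different treatment groups, in both regions, and neither differed past the threshold. miR-18a-5p stayed between group means of 1.57 and 4.10 RPM, too near 0 for a fold.

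**Figure D4:**
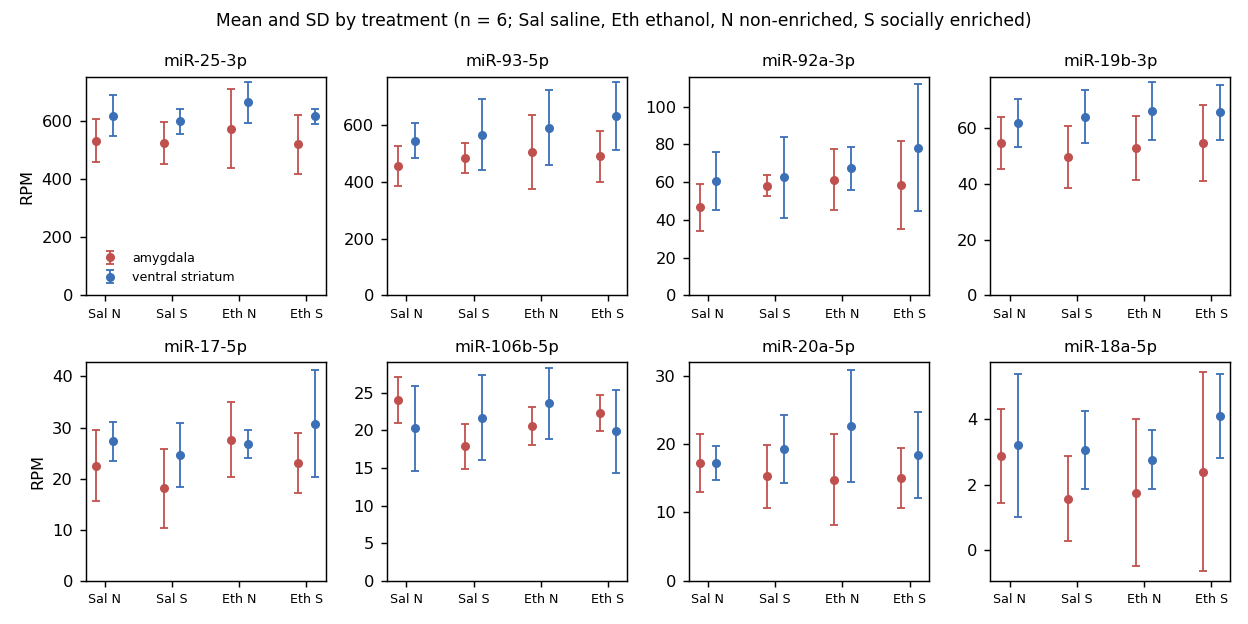
Mean RPM ± SD (n = 6 libraries) of each member in the 4 treatment groups, amygdala in red and ventral striatum in blue, on linear axes that include 0. Bars of the treatment groups overlap for every member within a region except miR-106b-5p in the amygdala, whose saline groups average 24.02 and 17.8 RPM.

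The 1 member with an unadjusted p under 0.05 in any treatment comparison was miR-106b-5p, in the amygdala. In saline rats it ranged from 19.3 to 27.3 RPM (median 25.3) in the 6 non-enriched libraries and from 14.4 to 22.3 RPM (median 17.3) in the 6 socially enriched ones. The groups overlapped, with 24.02 ± 3.05 against 17.8 ± 2.96 RPM (SD, n = 6 each), and means of females and of males both were lower with enrichment, 18.2 against 23.9 RPM and 17.5 against 24.1 RPM. The log2 difference was −0.41 (SE 0.13), with an exact two-sided permutation p of 0.0108, a limma p of 0.00598 unadjusted and a limma adjusted p of 1 over 910 names. The study listed this miRNA as lower in this comparison, both from these libraries and from microarrays of the same pooled RNA. The sequencing values are the same ones, so the direction here is not independent evidence.

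In ethanol-exposed rats the order was the other way. Non-enriched libraries ranged from 17.1 to 24.2 RPM (median 20.2) and socially enriched ones from 18.9 to 25.8 RPM (median 21.8), a log2 difference of 0.11 (SE 0.13, limma adjusted p = 1). Between the enriched groups, ethanol-exposed rats averaged 22.3 ± 2.34 RPM against 17.8 ± 2.96 RPM in saline rats (SD, n = 6 each), a log2 difference of 0.31 (SE 0.13, exact permutation p = 0.0195, limma adjusted p = 0.911). The ethanol by enrichment interaction was 0.52 (SE 0.19), with a limma p of 0.0121 unadjusted and a limma adjusted p of 0.957, where 3.85% of the 910 names had an unadjusted p under 0.05. These contrasts share the socially enriched saline group, the lowest of the 4.

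The other arm and the hairpin were not lower with enrichment. In saline rats miR-106b-3p averaged 23.1 ± 4.98 RPM in non-enriched and 25.5 ± 6.02 RPM in socially enriched libraries, and mir-106b averaged 54.4 ± 6.02 and 55.2 ± 7.71 RPM (SD, n = 6 each). In the ventral striatum miR-106b-5p averaged 20.3 ± 5.68 RPM in saline non-enriched, 21.6 ± 5.67 in saline socially enriched, 23.6 ± 4.71 in ethanol non-enriched and 19.8 ± 5.48 in ethanol socially enriched rats (SD, n = 6 each). There the log2 difference for enrichment in saline rats was 0.08 (SE 0.21). The difference between the regions in this effect was −0.50 (SE 0.24, limma adjusted p = 1), a test chosen after the values were seen. In the tests of this difference over 915 names, 0 had an adjusted p under 0.05, and an unadjusted p under 0.05 was found for 2.62% for enrichment in saline rats, 2.19% for enrichment in ethanol-exposed rats, and 3.61% and 2.08% for ethanol in non-enriched and in socially enriched rats. The amygdala values rested on 6 to 33 reads per library.

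**Figure D5:**
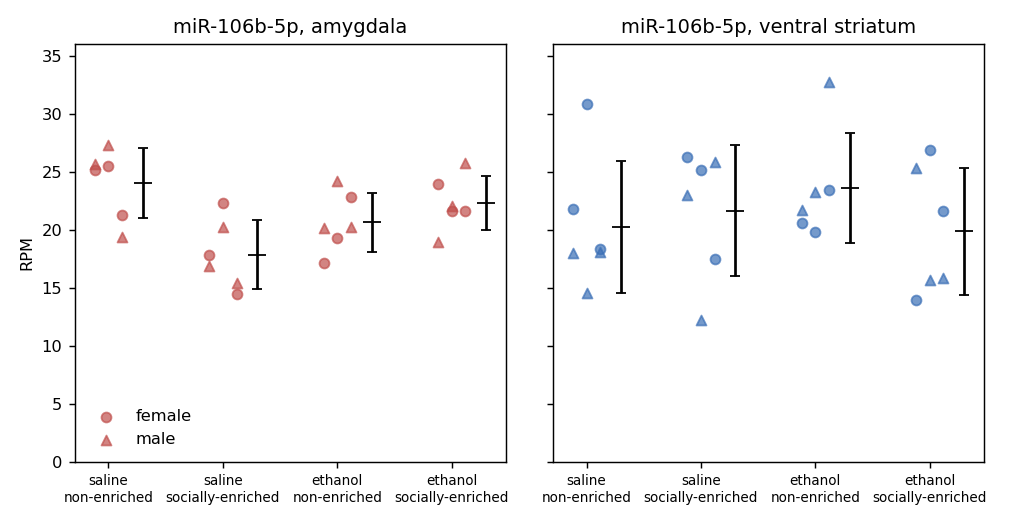
RPM of miR-106b-5p in each library by treatment group, circles for female and triangles for male pools, with the mean ± SD (n = 6) beside them; amygdala left, ventral striatum right, axis from 0. In the amygdala the saline socially enriched group is lowest, at 17.8 RPM on average, and overlaps every other group.

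The other 7 members had log2 differences between −0.74 and 0.41 in the amygdala and between −0.28 and 0.43 in the ventral striatum over the 4 comparisons. The extremes were those of miR-18a-5p and miR-17-5p in the amygdala, and of miR-20a-5p and miR-18a-5p in the ventral striatum. The lowest unadjusted limma p among these 7 members was 0.140. Among the 31 related names, 0 of 300 tests over the 12 treatment, interaction and sex comparisons had an adjusted p under 0.05, and 7 had an unadjusted p under 0.05. In the amygdala miR-17-1-3p, the passenger arm of mir-17-1, averaged 4.51 ± 1.06 RPM in ethanol-exposed and 1.78 ± 1.26 RPM in saline socially enriched rats (SD, n = 6 each, exact permutation p = 0.00649, limma adjusted p = 0.880). In ethanol-exposed rats of the same region it was also higher with enrichment, 4.51 against 2.58 ± 1.48 RPM (exact permutation p = 0.0303). These are levels of 6 reads or fewer per library.

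miR-19a-3p, the sister of miR-19b-3p, averaged 3.42 ± 2.16 RPM in socially enriched and 6.73 ± 2.52 RPM in non-enriched ethanol-exposed rats in the amygdala (SD, n = 6 each, exact permutation p = 0.0238, limma adjusted p = 1). mir-17-1 averaged 11.02 ± 3.46 RPM in socially enriched and 16.9 ± 4.74 RPM in non-enriched saline rats there (exact permutation p = 0.0281, limma adjusted p = 1). In the ventral striatum miR-17-1-3p was at 2.05 ± 1.09 RPM in ethanol-exposed and 3.78 ± 1.42 RPM in saline non-enriched rats (exact permutation p = 0.0455), the opposite order to its ethanol comparison in enriched rats of the amygdala. miR-18a-3p was at 7.95 ± 1.81 RPM in socially enriched and 5.62 ± 1.41 RPM in non-enriched saline rats of the ventral striatum (exact permutation p = 0.0325). None of these passed the limma test over all names. They were picked by an exact permutation p under 0.05 among 31 related names, in every pairwise treatment comparison of both regions. Some such values arise by chance in that many tests. The study also listed miR-17-1-3p as higher and the hairpin mir-19a as lower with enrichment in ethanol-exposed rats of the amygdala. Both were listed from these libraries and from microarrays of the same pooled RNA, by p-values not corrected for multiple testing. The sequencing values here are therefore no independent evidence either.

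No member passed the test between females and males. Female minus male log2 differences lay between −0.14 and 0.56 in the amygdala and between −0.07 and 0.13 in the ventral striatum, and 0 of 8 members passed at an adjusted p under 0.05 by limma (0 names in either region, with 4.18% and 2.89% of names at an unadjusted p under 0.05, and 0 members among them). miR-25-3p averaged 560 ± 116 RPM in female and 515 ± 64.4 RPM in male amygdala pools and 629 ± 40.4 and 620 ± 72.6 RPM in those of the ventral striatum (SD, n = 12 each). The interaction of ethanol and enrichment in the ventral striatum gave 0 members as well, with 2.57% of names at an unadjusted p under 0.05.

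For each member the nearest of 290 names outside the clusters was more alike by its pattern over libraries than any other member was. A search among 290 names against so few members favours an outside name. The order therefore does not show that the members lack a shared pattern. The related names, such as miR-106b-3p and miR-92b-3p, were left out of this search, so likeness to them is not known. As a measure of likeness that does not depend on the scaling of a library, the SD of the log2 ratio to each of 290 other mature names with a mean of at least 10 RPM in both regions was taken over the 48 libraries, after removing region means. For miR-25-3p the nearest name was miR-27b-3p with an SD of 0.145 (median of the 290 names 0.390), and its nearest member was miR-93-5p with 0.197, which would rank 6 among them. For miR-93-5p the nearest name was miR-181b-5p (0.159), with miR-25-3p at rank 4. miR-106b-5p had miR-384-5p as its nearest name (0.284), and its nearest member, miR-19b-3p, was not from its own cluster (0.322, rank 28).

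Among the other members the SD to the nearest name ranged from 0.249 to 0.728. miR-19b-3p was nearest to miR-27b-3p (0.249), miR-92a-3p to miR-26b-5p (0.311), miR-17-5p to miR-195-5p (0.349), miR-20a-5p to miR-374-5p (0.355) and miR-18a-5p to let-7b-3p (0.728). Nearest members were miR-25-3p for miR-19b-3p (0.261), miR-93-5p for miR-92a-3p (0.368) and for miR-18a-5p (0.766), and miR-19b-3p for miR-17-5p (0.404) and for miR-20a-5p (0.405). Of the 8 nearest members, 4 were from the same cluster, and their ranks among the 290 other names lay between 4 and 28. The ratios are read against each member's own SD of log2(RPM + 1) over the same libraries. The SD to the nearest name was under it for 7 members, such as miR-25-3p (0.190) and miR-93-5p (0.251), but not for miR-19b-3p (0.245). The SD to the nearest member was above it for miR-25-3p, miR-19b-3p and miR-106b-5p (0.292) and equal to it for miR-17-5p (0.404).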

How the data were processed

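The deposited table holds one signal per miRBase 21 name and library, for 48 libraries. The authors trimmed bases, aligned the reads to the Rn5 assembly with Bowtie, quantified mature and precursor names in Partek and scaled each library, and the treatment of reads matching more than 1 name is not given in the sources used here. The deposited signal summed to 1000000 (within rounding) over the mature and again over the precursor names of each library, so levels are compared within a kind. From the smallest steps the libraries held 363141 to 1370412 mature reads, and every value of the members came out whole in reads within 0.02 of a read, but other values did not, so no count test was run. Depth limits the members with few reads, and floors cover counting error only.

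Names above 0 RPM in at least 6 of 24 libraries (12 of 48 for the region) entered limma 3.58.1 in R 4.3.3, on log2(RPM + 1), with eBayes and trend, over the cells of sex and treatment, two-sided, with Benjamini-Hochberg adjustment over all names tested; these differences understate changes of low names. Single names were compared in mean RPM by exact two-sided permutation over the 924 divisions of 12 libraries (smallest possible p 0.00216), using scipy 1.17.1 under Python 3.11.15, with pandas 2.3.3 and numpy 2.4.6. The design was written for RPM and needed no change of test. On simulated data with 200 names changed by 1 on the log2 scale, limma called 149 of them in the test of enrichment in saline rats of the amygdala (910 names, 5 false calls) and 194 in the region test (915 names, 5 false calls). Smaller changes, such as the −0.41 of miR-106b-5p for enrichment in saline rats of the amygdala, were not simulated, so their recovery is not known. Changes of only a few names were not simulated either. The adjustment is stricter when fewer names change, so the recovery shown may be too high for a single member.

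Alternatives were other pseudocounts (0.1 and 10), filters (none, and a mean of 10 RPM), median-ratio rescaling, mature names only, lines averaged in place of summed, a block for the replicate number, a fit restricted to the 12 libraries of a comparison, a random block for neighbouring library numbers (region only), and each library left out. Named were the 8 members, the related names (other arms and hairpins beginning like them, with a mean of at least 10 RPM or an exact permutation p under 0.05) and, per member, the name with the smallest SD of the log2 ratio. The search for that name covered mature names outside the members and all related names. A marker named miR-486 was not matched to a name. Members, related names, markers and tests were chosen with earlier results of these data known. Microarray and mRNA values were not analysed here.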

Additional observations from a re-analysis of the deposited data

Results flagged for a closer look

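In groups of 6 libraries of a member, 5 of 64 groups had a library that stood apart from the others by Dixon's test, which chance does for about 1 group in 20. In 3 of the 5 it was the same library, the female ethanol non-enriched replicate 1 of the amygdala, with 6.11 RPM of miR-18a-5p (next 1.76), 74.5 RPM of miR-19b-3p (next 54.7) and 833 RPM of miR-25-3p (next 585). It also had the highest miR-93-5p of its group, 741 RPM, while its miR-106b-5p, 17.1 RPM, was the lowest of its group. It held 818324 mature reads, 37264 RPM of miR-204-5p and 11368 RPM of miR-338-3p, and the part of these in its values was not tested. Without this library 5 members were called between the regions, with miR-25-3p at a log2 difference of −0.25 (limma adjusted p = 0.000324) and miR-17-5p at −0.31 (limma adjusted p = 0.0462).

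In the ventral striatum, the male saline socially enriched replicate 3 had 103 RPM of miR-92a-3p where the next library of its group had 65.8. The male ethanol non-enriched replicate 3 had 32.7 RPM of miR-106b-5p where the next had 23.4. No member's treatment effect differed between the regions, and no interaction of ethanol and enrichment passed, at an adjusted p under 0.05 by limma, with 1 member, miR-106b-5p, at an unadjusted p under 0.05 in each of the 2 kinds of test.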

How the results depend on the processing

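All 12 counts of members called for treatment, interaction and sex stayed at 0 under each alternative and with each library left out. For the region, 4 members were called; the count was 1 after median-ratio rescaling and 2 without the 9 amygdala libraries under 700000 mature reads, an alternative chosen after the values were seen, and the cause was not tested. It was 3 with a pseudocount of 10, 5 with consecutive library numbers as a random block (consensus correlation 0.0545) and 4 under the others. With a mean of at least 10 RPM, though, miR-17-5p replaced miR-18a-5p, which was not tested there. Deviations of 11 of 24 consecutive pairs correlated over 0.1, against 17 of 48 other pairs of the same sex and treatment across the regions. Their median correlations were 0.046 and 0.010, which does not settle whether consecutive numbers share rats. Leaving out 1 library gave 3 to 6 members, with 6 called without the ventral striatum female ethanol socially enriched replicate 1. miR-18a-5p was called without 27 libraries and lost without the other 21, miR-17-5p was gained without 9 and miR-20a-5p without 3. The log2 difference of miR-18a-5p was −1.33 with a pseudocount of 0.1 and −0.14 with 10. That of miR-106b-5p, 0.01, was −0.013 without the 9 shallow libraries and between −0.027 and 0.040 with 1 library left out.

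The replicate numbers gave no sign of a general pairing. Deviations from the group means of libraries with the same number had a median correlation of 0.00322 (39 of 84 pairs over 0.1) in the amygdala. In the ventral striatum it was −0.00212 (32 of 84). Such medians cannot exclude a pairing of some libraries. In male amygdala pools replicate 2 was the shallowest library of each treatment group, with 363141 to 544043 mature reads, so the number went with depth there. The study sequenced its libraries in multiplexed sets, which the labels do not give. With the replicate number as a block, 4 members were again called between the regions and 0 in every other comparison, and the names called between the regions numbered 292 against 277. For miR-106b-5p, the log2 difference for enrichment in saline rats of the amygdala stayed between −0.49 and −0.29 over all alternatives, with limma adjusted p from 0.611 to 1. Depth limits miR-18a-5p most, with 0 to 6 reads per library.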

Other observations

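The arms of miR-106b were read in different proportions in the regions, a comparison chosen after the values were seen. By mean RPM, miR-106b-3p stood at 118% of miR-106b-5p in the amygdala, against 161% in the ventral striatum. Those shares depend on library scaling, while the log2 ratio within a library does not. The log2 ratio of the arms was 0.21 ± 0.47 in the amygdala, against 0.66 ± 0.51 in the ventral striatum (SD, n = 24 each), and 20 of 24 amygdala libraries were under the ventral striatum's median (two-sided permutation test with 100000 resamples, p = 0.00259). For miR-18a, a further hairpin with reads on both arms, the log2 ratio of miR-18a-3p + 1 to miR-18a-5p + 1 was 0.75 ± 1.21 and 0.76 ± 0.97 (SD, n = 24 each, permutation p = 0.970).

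The log2 ratio of miR-25-3p to miR-92b-3p, which share a seed, was −4.26 ± 0.30 in the amygdala, against −3.84 ± 0.33 in the ventral striatum (SD, n = 24 each), with 22 of 24 amygdala libraries under the ventral striatum's median (permutation test with 100000 resamples, p = 7e-05). This pair was also chosen after the values were seen. It joins a name called lower in the amygdala with one called higher, so its small p is not separate support. The 3 ratios were the only ones tested, and their permutations took no account of sex, treatment or shared rats.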
